A study of Mus musculus with 32 samples.

Results

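The 36 genes described here code for the parts that join epithelial cells to each other and give them their intermediate filaments: E-cadherin and EpCAM, simple epithelial keratins, tight junction and polarity proteins, desmosome and cornified plaque proteins, epithelial splicing factors, membrane serine proteases with their inhibitors, 2 trafficking genes and 2 hemidesmosome or basement membrane genes. They were taken as a fixed list of symbols and matched through GENCODE M21 to Ensembl identifiers. All 36 were found among the 55401 genes of each of the 5 deposited tables.

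The tables hold RNA-seq of 32 libraries in 16 groups of 2. Fibroblasts from OG2X129 mouse embryos were taken towards chemically induced pluripotent stem cells (ciPSC), a route that uses small molecules in place of transgenes. Per the labels' protocols, the medium held VPA, CHIR99021, 616452, Parnate, Forskolin, AM580, EPZ004777, vitamin C and bFGF with serum and serum replacement, so the controls carried these agents too, among them AM580, which activates the retinoic acid receptor. The cultures received CD (CD3254, an agonist of the retinoid X receptor, RXR) or its solvent DMSO, carried an Rxra overexpression (Rxra-OE) or the control labelled WT OE (CTR), or carried a hairpin against Exosc3, a subunit of the RNA exosome (shE3), or a control hairpin (shCTR). A further 12 libraries came from CD and DMSO cultures after 0, 4 and 8 h of actinomycin D, which blocks transcription. The last 8 came from embryonic fibroblasts (MEF), iPSC lines derived with DMSO or CD, and R1 mouse embryonic stem cells. The labels give no dose of CD, no day of sampling, no vector promoter or hairpin sequence, and do not say whether a line is 1 clone or whether replicates were separate cultures. The MEF libraries carry the genotype label of the control hairpin and the reprogramming treatment label, and the DMSO-derived lines are titled DMSP-iPSC and labelled with DMSO addition.

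Epithelial cells are held together at their sides by adherens junctions, built on E-cadherin, by tight junctions, built on claudins and occludin, and by desmosomes, which anchor keratin filaments. Fibroblasts largely lack these structures, and their loss or gain is the hallmark of the transitions between epithelial and mesenchymal states. Reprogramming of fibroblasts passes through such a gain, and in the chemical route through cells that resemble extraembryonic endoderm (XEN). Repressors of the Snail and Zeb families are known to act on epithelial genes through E-boxes with the core CACCTG.

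For that reason the 250 bases before the RefSeq transcription start were searched for CACCTG on both strands (its reverse complement is CAGGTG). RefSeq promoters on GRCm38.p6, the patched form of the build named mm10, were held for 21 of the 36 genes, as 27 promoters. The letters occurred in 17 of these 27 (63.0%), belonging to 15 of the 21 genes, against 17.2% of all 32851 promoters in the table. No E-box match overlapped a match of the other motifs searched. The genes without a match were Cgn, Cldn3, Dsp, Jup, Marveld2 and Spint1. The members' windows were also richer in G and C (median 60.8% against 52.4%), and the GC box GGGCGG was found in 66.7% of them against 32.7% of all. The half-site of nuclear receptors, AGGTCA, occurred in 25.9% against 14.0%, the Grainyhead motif AACCNGTT in 7.41% against 1.79%, and the AP-1 motif TGANTCA in 7.41% against 6.75%. These matches describe letters in the window and name no bound site. The sequences are shown for the most abundant members that rose with CD and had an entry (Krt8, Krt18, Epcam, Spint2), for Ap1m2, which had 4 matches, and for Dsp, which had none. Capitals mark the E-box letters, and each sequence runs 5′ to 3′ on the gene's strand. For Krt8, Krt18 and Ap1m2 the window overlaps the first bases of the GENCODE gene because the RefSeq start lies further inside. The marked letters of Krt8 lie in that overlap, so they are not before its GENCODE start. The same holds for the matches of Krt7, Crb3, Cldn6, Cldn7, Ocln and Lamb3, which lie inside the GENCODE gene. The 2 windows of Crb3 overlap and hold the same 3 matches, which the count of promoters takes as separate.
Krt8 promoter, chr15:102004343-102004592, minus strand: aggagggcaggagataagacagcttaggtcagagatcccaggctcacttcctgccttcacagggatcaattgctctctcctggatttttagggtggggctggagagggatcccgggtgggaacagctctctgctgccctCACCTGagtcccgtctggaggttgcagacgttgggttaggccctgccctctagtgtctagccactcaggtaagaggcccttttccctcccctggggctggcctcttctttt
Krt18 promoter, chr15:102027966-102028215, plus strand: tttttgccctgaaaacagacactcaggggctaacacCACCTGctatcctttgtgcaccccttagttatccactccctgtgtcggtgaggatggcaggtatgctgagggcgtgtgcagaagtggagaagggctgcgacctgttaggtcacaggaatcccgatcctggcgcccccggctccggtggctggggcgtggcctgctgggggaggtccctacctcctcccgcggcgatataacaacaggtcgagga
Epcam promoter, chr17:87635729-87635978, plus strand: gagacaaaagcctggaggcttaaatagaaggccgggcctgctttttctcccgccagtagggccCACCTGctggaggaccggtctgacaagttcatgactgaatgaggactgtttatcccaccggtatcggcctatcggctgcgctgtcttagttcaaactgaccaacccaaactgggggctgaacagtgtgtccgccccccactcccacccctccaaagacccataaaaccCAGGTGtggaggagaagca
Spint2 promoter, chr7:29281978-29282227, minus strand: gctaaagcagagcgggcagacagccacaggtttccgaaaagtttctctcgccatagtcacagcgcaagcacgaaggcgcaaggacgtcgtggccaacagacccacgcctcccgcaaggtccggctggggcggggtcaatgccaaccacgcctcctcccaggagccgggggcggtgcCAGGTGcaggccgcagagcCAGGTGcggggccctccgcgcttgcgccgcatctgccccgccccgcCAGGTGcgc
Ap1m2 promoter, chr9:21312334-21312583, minus strand: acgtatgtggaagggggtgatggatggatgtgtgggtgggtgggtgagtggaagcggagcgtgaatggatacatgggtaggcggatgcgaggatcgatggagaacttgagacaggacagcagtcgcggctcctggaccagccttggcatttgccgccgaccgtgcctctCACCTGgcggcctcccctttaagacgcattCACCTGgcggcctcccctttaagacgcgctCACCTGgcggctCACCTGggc
Dsp promoter, chr13:38151044-38151293, plus strand: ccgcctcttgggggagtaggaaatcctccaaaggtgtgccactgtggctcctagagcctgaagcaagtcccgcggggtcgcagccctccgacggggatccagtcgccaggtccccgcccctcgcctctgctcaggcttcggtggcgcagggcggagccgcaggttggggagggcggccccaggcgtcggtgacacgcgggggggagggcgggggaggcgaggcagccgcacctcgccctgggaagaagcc

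Levels are given as deposited, in TPM (transcript abundance scaled for gene length and library size) in 4 tables and in CPM (reads scaled for library size) in the actinomycin D table, whose recovered depth was 15382821 to 24186485 reads per library. Depth is unknown for the other tables. Since the median gene moved by up to 0.62 on the log2 scale between groups, changes are relative to the median gene: libraries were rescaled by the median ratio, and limma was run on log2(value + 1), so that low genes' changes are understated. Each change is given as log2 ± SE, and a gene is said to have risen or fallen where the Benjamini-Hochberg adjusted p was under 0.05 over all genes tested. Mitochondrial RNA made up 57.1 and 55.4% of TPM with DMSO against 53.3 and 52.9% with CD, 62.0 and 59.3% in CTR against 50.9 and 50.9% in Rxra-OE, and 15.5 and 14.4% in shCTR against 11.9 and 11.8% in shE3. In the lines its share was 17.4 and 16.2% in DMSO-iPSC, 8.87 and 14.0% in CD-iPSC, 13.4 and 11.9% in R1 and 9.5 and 7.46% in MEF. Under actinomycin D it was 6.92 and 9.03% of CPM in DMSO_0h, 4.93 and 5.18% in CD_0h, 8.79 and 7.68% in DMSO_8h and 8.99 and 9.29% in CD_8h. This share was lower in both libraries with CD, Rxra-OE, shE3, CD_0h and CD-iPSC than in either of the controls, and its part in the members' changes was not tested. In the bulk libraries, fewer cells of a type and less RNA per cell cannot be told apart. Rxra stood at 8.70 and 9.57 TPM in CTR and at 21.7 and 21.7 in Rxra-OE. In these deposited values the median gene was higher too, by 0.62 on the log2 scale, so the gain of Rxra relative to it is smaller. Exosc3 stood at 8.86 and 10.2 TPM in shCTR and at 5.97 and 4.01 in shE3.

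CD raised most of the epithelial genes. Of the 36 members, 32 passed the filter on low values (1 TPM or more in at least 2 libraries), and 28 of these rose, 2 fell (Dsp and Itgb4) and 2 were not called (Cxadr and Jup). Their median change was 1.02, against 0.01 over all 13006 genes tested, of which 61.7% were called (31.3% higher and 30.5% lower). As deposited, without rescaling, 29 members were higher (Cxadr too, by 0.23) and 2 lower, where 62.6% of all genes were called (43.1% higher and 19.5% lower). Summed over the 36 genes, TPM rose from 373 and 397 in the DMSO libraries to 1163 and 1241 in the CD libraries.

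The keratins led. Krt8, a type II keratin of simple epithelia, stood at 46.9 and 50.9 TPM with DMSO and at 203 and 220.0 with CD (1.89 ± 0.04, limma adjusted p = 2.56e-05). Its partner Krt18, a type I keratin with which it forms filaments, stood at 40.2 and 45.4 TPM with DMSO and 171 and 193 with CD (1.87 ± 0.07). Krt19 moved from 43.8 and 46.3 to 174 and 187 TPM (1.78 ± 0.04). All 3 were separated between the groups, and together with Spint2 and Epcam they were the 5 most abundant members in both groups. The ratio of Krt8 to Krt18 TPM stayed between 1.12 and 1.19 in the 4 libraries. Krt7, a keratin of ductal epithelia, was far lower (1.10 and 1.21 against 2.46 and 2.63 TPM, 0.59 ± 0.08).

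The surface adhesion genes followed. Epcam, a homophilic adhesion molecule of epithelial and stem cells, stood at 46.2 and 45.4 TPM with DMSO and 147 and 144 with CD (1.45 ± 0.05, limma adjusted p = 3.61e-05). Cdh1, the gene of E-cadherin, rose from 9.24 and 10.1 to 26.6 and 25.5 TPM (1.16 ± 0.06). Neither gene's groups overlapped. Of the 12 tight junction and polarity genes, 10 rose and Cxadr, which codes for a junctional virus receptor, was not called (12.4 and 12.4 against 15.2 and 14.3 TPM, 0.05 ± 0.06). Marveld2, the gene of tricellulin, stayed under the filter with 0.437 to 0.664 TPM. Among claudins, the strands that seal the tight junction, Cldn7 changed most (10.6 and 13.2 against 33.6 and 38.2 TPM, 1.33 ± 0.10), and Cldn3, Cldn4 and Cldn6 rose by 1.12, 1.02 and 0.97. The remaining risers of this group, Ocln, Tjp3, Cgn, Marveld3, F11r and Crb3, changed by 0.90 to 1.15.

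Desmosomal genes split. Dsg2, Dsc2, Pkp2 and Pkp3, which code for 2 cadherins and 2 plaque proteins, rose by 1.06, 0.48, 0.81 and 0.90. Dsp, the plaque protein desmoplakin that binds the keratin filaments, fell from 12.4 and 12.8 to 9.86 and 9.80 TPM (-0.51 ± 0.05, limma adjusted p = 0.000867). Jup, plakoglobin, was at 10.4 and 11.4 TPM with DMSO against 11.7 and 12.5 with CD and was not called (-0.05 ± 0.06). Ppl and Evpl, of the cornified envelope, reached at most 0.559 TPM and were not tested. Itgb4, the integrin subunit of hemidesmosomes, fell from 5.22 and 6.05 to 2.78 and 2.96 TPM (-0.93 ± 0.08), and Lamb3, a laminin-332 chain, was listed at 0.788 and 1.08 against 0.387 and 0.251 TPM without passing the filter. Thus the 2 genes that attach epithelium to its basement membrane were lower in both CD libraries than in either DMSO library, while those of lateral contacts were mostly higher.

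All 8 splicing, protease, inhibitor and trafficking genes rose. Esrp1 and Esrp2, which direct the epithelial splicing pattern, rose by 1.12 ± 0.07 and 1.02 ± 0.11. Spint2, a Kunitz inhibitor of membrane proteases, was the most abundant of the DMSO group's members (58.5 and 61.7 TPM) and reached 168 and 183 with CD (1.33 ± 0.04). Its target St14, matriptase, rose by 1.17, Spint1 by 1.23 and Prss8, prostasin, by 0.95. Ap1m2, the epithelial subunit of the AP-1B sorting adaptor, rose by 1.09 and Rab25, an apical recycling GTPase, by 0.35. The calls of Dsc2 (without CD replicate 1, adjusted p = 0.055) and Rab25 (without either CD library or DMSO replicate 1, up to 0.155) were lost when a library was left out. Tjp3, at 0.764 and 0.763 TPM with DMSO and 2.66 and 3.05 with CD, passed the filter through the CD libraries only and was not tested without either of them. The other 27 calls were kept in each fit.

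**Figure D1:**
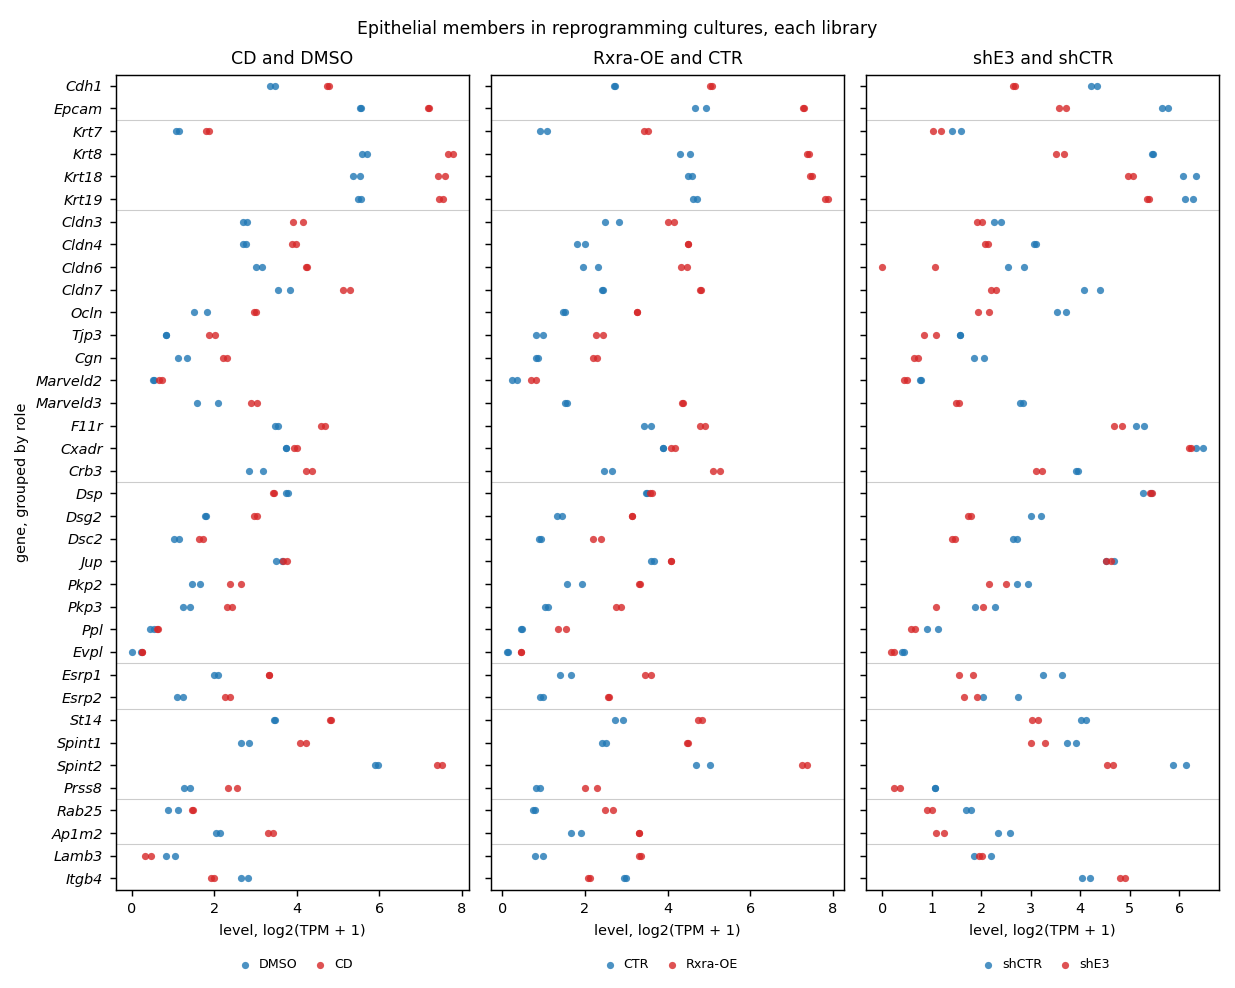
Level of each member in every library of the CD, Rxra and Exosc3 tables; the x axes give log2(TPM + 1) of the deposited values, each point is 1 library (red for CD, Rxra-OE or shE3, blue for its control), and horizontal lines part the roles. Red points lie to the right of blue ones for Krt8 (46.9 and 50.9 against 203 and 220.0 TPM) and most other members in the first 2 panels and to the left in the third, with Itgb4 the other way.

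Rxra overexpression also raised most of the epithelial genes. Of 34 members tested, 30 rose and 4 fell, with a median of 1.25 against 0.01 over 13305 genes, of which 70.5% were called (35.3% higher and 35.2% lower). As deposited, the median gene was higher by 0.62, and 32 members were higher and 1 lower, where 82.6% of all genes were called (68.6% higher and 14% lower). Of the 30 risers, 8 (Tjp3, Cgn, Dsc2, Ppl, Esrp2, Prss8, Rab25 and Lamb3) were under 1 TPM in both CTR libraries and passed the filter through the Rxra-OE libraries only, so that they could be tested only where they were high. The 26 members that did not depend on 1 group for passing gave 22 risers and 4 fallers. The 36 genes summed to 218 and 247 TPM in CTR and to 1294 and 1253 in Rxra-OE. The comparison shares no library with that of CD, and all 30 members called with CD had the same direction here, as had 96.8% of the 6542 genes called in both.

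Krt19 went from 23.5 and 25.3 to 235 and 223 TPM (2.45 ± 0.05, limma adjusted p = 9.22e-06). Krt8 stood at 18.7 and 22.3 in CTR and 171 and 165 in Rxra-OE (2.25 ± 0.06), and Krt18 at 21.4 and 23.1 against 179 and 172 (2.20 ± 0.05). Krt7 rose from 0.866 and 1.13 to 9.75 and 10.5 TPM (1.95 ± 0.09). In each of the 4 keratins the groups were well apart. Epcam rose from 24.4 and 29.3 to 155 and 153 TPM (1.76 ± 0.06) and Cdh1 from 5.58 and 5.49 to 31.3 and 32.5 (1.65 ± 0.07). Marveld3, a tight junction membrane protein, had one of the largest changes (1.97 and 1.87 against 19.8 and 19.5 TPM, 2.21 ± 0.08), as did Cldn4 (2.50 and 2.98 against 21.6 and 21.4, 1.96 ± 0.07). Crb3, an apical polarity protein, rose by 1.95 ± 0.08.

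Lamb3 stood at 0.738 and 0.990 TPM in CTR and 8.82 and 9.19 in Rxra-OE (1.91 ± 0.09). It is one of the 8 that passed the filter through Rxra-OE only, and it was not tested without either of those libraries. In the CD table it was listed lower in both CD libraries. Itgb4 fell here as well (6.68 and 6.99 against 3.35 and 3.19 TPM, -1.48 ± 0.08, limma adjusted p = 3.95e-05). The other 3 members called lower depend on the scaling. Cxadr changed by -0.46, Dsp by -0.57 and Jup by -0.24 relative to the median gene, but by 0.24, 0.11 and 0.46 as deposited. Their levels were 13.8 and 13.7 against 15.9 and 16.9 TPM for Cxadr, 10.3 and 10.1 against 10.8 and 11.3 for Dsp and 11 and 11.7 against 16 and 16 for Jup. All 3 stood at a higher TPM in both Rxra-OE libraries than in either CTR library, by less than the median gene's gain. The fall of Jup was lost without either Rxra-OE library (adjusted p up to 0.089). When an Rxra-OE library was left out, the 8 members named above fell under the filter, 26 were tested and 22 were called higher.

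Knockdown of Exosc3 went the other way. Of 33 members tested, 22 fell, 1 rose (Itgb4) and 10 were not called, with a median of -0.76 against 0.02 over 15700 genes, of which 29.1% were called (12.9% lower and 16.2% higher). As deposited, again 22 members were lower and 1 higher, where 17.2% of all genes were called (12.3% lower and 4.85% higher). Summed TPM of the 36 genes was 634 and 713 in shCTR and 384 and 373 in shE3. Epcam fell from 49.1 and 53.4 to 12.0 and 10.9 TPM (-2.0 ± 0.06, limma adjusted p = 0.000485), Cdh1 from 17.6 and 19.1 to 5.2 and 5.40 (-1.55 ± 0.08) and Krt8 from 42.5 and 43.6 to 10.4 and 11.8 (-1.80 ± 0.09). The groups of all 3 genes lay far apart.

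The keratins did not fall equally. Krt18 stood at 66.1 and 79.5 TPM in shCTR and 30.1 and 32.3 in shE3 (-1.12 ± 0.07), Krt19 changed by -0.76 ± 0.04, and Krt7 was not called (-0.36 ± 0.16). The ratio of Krt8 to Krt18 TPM was 0.642 and 0.548 in shCTR and 0.344 and 0.365 in shE3. Cldn7 fell from 15.8 and 20.1 to 3.57 and 3.90 TPM (-1.93 ± 0.11) and Esrp1 from 8.55 and 11.4 to 2.55 and 1.94 (-1.69 ± 0.15). Cldn6, a claudin of embryonic epithelia, was at 4.85 and 6.28 TPM in shCTR, and in shE3 it was listed at 0 in one library and stood at 1.10 in the other (limma adjusted p = 0.0124), and its call was lost with a pseudocount of 0.1. Of the 12 tight junction and polarity genes 11 were tested and 8 fell. Of the desmosomal genes only the cadherins Dsg2 (-1.28 ± 0.11) and Dsc2 (-1.19 ± 0.12) fell. Dsp (37.5 and 42.4 against 42.9 and 41.5 TPM, 0.15 ± 0.05) and Jup (21.9 and 24.7 against 22.1 and 23.7, 0.04 ± 0.07) overlapped between the groups and were not called. Itgb4 rose from 15.3 and 17.3 to 29.0 and 27.0 TPM (0.81 ± 0.06, limma adjusted p = 0.00182). The calls of Spint1 (without shCTR replicate 2, adjusted p = 0.0538), Prss8 (without either shE3 library, up to 0.0849) and Rab25 (without shE3 replicate 2 or either shCTR library, up to 0.112) were lost when a library was left out. Cgn and Prss8 passed the filter through the shCTR libraries only and were not tested without either of them. The other 19 calls were kept in each fit.

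The 3 culture experiments share no library. Of the 32 members tested in all 3 tables, 22 rose with CD, rose with Rxra-OE and fell with shE3, and Itgb4 was the member with the 3 opposite calls. Of all 12418 genes tested in the 3 tables, 9.78% had the first pattern and 12.2% the second. A further 6 members rose in the first 2 experiments and were not called in the third, as did 13.8% of all genes, namely Cldn3, Esrp2, Krt7, Pkp2, Pkp3 and Tjp3. Cgn, Dsc2, Prss8 and Rab25 of the 22, and Esrp2 and Tjp3 of the 6, passed the filter there through the Rxra-OE libraries only. Tjp3 also passed through the CD libraries only, and Cgn and Prss8 through the shCTR libraries only. These members could be tested in those comparisons only where they were high. Dsp, Jup and Cxadr were called higher in none of the 3 relative to the median gene, whereas as deposited Cxadr was higher with CD (0.23) and with Rxra-OE (0.24) and Jup with Rxra-OE (0.46).

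Genes of the same structures that were not members moved in both directions. Of 22 broadly expressed junction partners, all tested, 11 rose and 6 fell with CD (median 0.18), 7 rose and 9 fell with Rxra-OE (-0.12), and 5 rose and 6 fell with shE3 (-0.01). Pard6b, a polarity adaptor (1.55 ± 0.08), and Llgl2, a basolateral polarity gene (0.96 ± 0.07), rose with CD, and Perp, a desmosomal p53 target, fell (-1.24 ± 0.05). Vcl, vinculin (-1.25 ± 0.06), Plec, plectin (-1.49 ± 0.08), and Itga6, the partner of Itgb4 (-1.10 ± 0.07), fell with Rxra-OE. With shE3, Itga6 (0.67 ± 0.04) and Perp (0.46 ± 0.04) rose. Of 10 other claudins, 3 passed the filter in the CD table, and Cldn15 fell (-1.05 ± 0.09) as did Cldn11 (-0.28 ± 0.06). Keratins and desmosomal genes of stratified epithelium were near the limit of detection in most libraries: 4 of 20 were tested with CD (2 rose and 1 fell), 7 with Rxra-OE (6 rose, Krt13 by 2.25 ± 0.09 and Krt14 by 1.18 ± 0.10) and 5 with shE3 (1 fell).

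Marker lists of other cell types moved as well, and only the XEN list moved in the members' direction in each culture experiment. The 8 XEN markers summed to 254 to 287 TPM with DMSO and 1074 to 1091 with CD (7 rose and 0 fell), to 166 to 192 in CTR and 1015 to 1078 in Rxra-OE (8 rose), and to 576 to 665 in shCTR and 263 to 275 in shE3 (7 of 8 fell), and none was at 0 in these libraries. The 12 fibroblast markers summed to 1614 to 1694 TPM with DMSO and 1040 to 1072 with CD, and to 1555 to 1718 in CTR and 634 in Rxra-OE, where all 12 fell each time. In the Exosc3 table they were at 3549 to 3894 against 3577 to 3621 TPM (5 rose and 2 fell). Keratinocyte markers reached at most 5.48 TPM in sum outside Rxra-OE, where they were at 10.3 to 10.4 with 2 of 10 at 0, and 4 of the 5 tested rose and 1 fell. The 6 mesothelial markers summed to 13.5 to 15.5 TPM with DMSO and 9.54 to 10.3 with CD (2 of 2 tested fell), to 5.05 to 6.54 in CTR and 4.09 to 4.82 in Rxra-OE (1 of 1 fell), and to 22.4 to 25.4 in shCTR and 29.4 to 30.8 in shE3 (2 of 4 rose). The 6 endothelial markers summed to 9.91 to 10.5 TPM with DMSO and 4.15 to 4.43 with CD (1 of 2 tested fell), to 5.34 to 5.66 in CTR and 13.7 to 14.5 in Rxra-OE (1 rose and 1 fell), and to 42.6 to 47.3 in shCTR and 33.8 to 37.0 in shE3 (1 of 2 fell). The 6 macrophage markers summed to 5.86 to 6.90 TPM with DMSO and 9.06 to 9.35 with CD (1 of 2 tested rose), to 12.1 to 13.7 in CTR and 10.0 to 10.2 in Rxra-OE (1 of 2 fell), and to 138 to 168 in shCTR and 350 to 355 in shE3 (1 of 5 rose). The 8 pluripotency markers reached at most 5.36 TPM in sum, in CD, against 2.50 to 2.65 with DMSO. The part of these cell types in the members' changes was not tested.

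In the actinomycin D experiment, the libraries before the block (0 h) again compared CD with DMSO. The CD_0h libraries were the least alike of the 16 groups, with a correlation across genes of 0.967, against 0.979 between the DMSO_0h libraries and 0.978 to 0.995 in the others. All 36 members were tested; 10 rose, 1 fell and 25 were not called, with a median of 0.44 against 0.07 over 17064 genes, of which 15.9% were called (7.1% higher and 8.82% lower). As deposited, 10 members were higher and 0 lower, where 14.6% of all genes were called (8.22% higher and 6.41% lower). The count depends on single libraries: 2 members were called higher without CD_0h replicate 1, 18 without CD_0h replicate 2, 10 without DMSO_0h replicate 1 and 1 without DMSO_0h replicate 2. The share of all genes called higher moved with it, at 0.712, 23.6, 12.8 and 0.335%. Scaled to the ERCC spike-ins, RNAs of known amount that the table lists, 1 member was called higher and 0 lower, against 0.598% and 1.09% of all genes.

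Krt19 was the member whose call held without each library in turn (187 and 123 CPM with DMSO and 399 and 329 with CD, 1.12 ± 0.16, limma adjusted p = 0.00346). Krt18 rose from 138 and 79.9 to 369 and 219 CPM (1.29 ± 0.28) and Krt8 from 259 and 228 to 386 and 413 (0.58 ± 0.11). Both calls were lost without DMSO_0h replicate 2, and that of Krt18 also without CD_0h replicate 1 (adjusted p up to 0.163 for Krt18 and 0.0593 for Krt8). Within each of these 3 genes the groups did not overlap, but the CD libraries of Krt18 lay further from each other than the nearer one lay from DMSO. Cgn, cingulin of the tight junction plaque, stood at 20.9 and 11 CPM with DMSO against 56.1 and 34.6 with CD (1.33 ± 0.28), Ocln, occludin, at 23.2 and 13.8 against 68.0 and 31.1 (1.18 ± 0.34), Tjp3, the scaffold ZO-3, at 9.5 and 6.56 against 19.8 and 14.0 (0.85 ± 0.26), and Cldn3 at 22.5 and 13.4 against 34.3 and 30.2 (0.71 ± 0.18). All 4 lost their call without CD_0h replicate 1 or DMSO_0h replicate 2 (adjusted p up to 0.15, 0.295, 0.291 and 0.207). Epcam (419.9 and 502 against 382 and 567 CPM, -0.12 ± 0.23) and Cdh1 (222 and 218 against 221 and 286, 0.05 ± 0.16) were not called, and their groups overlapped. Itgb4 was the member called lower (55.1 and 41.3 against 29.6 and 37.0 CPM, -0.64 ± 0.16), and its call was lost without CD_0h replicate 1 or either DMSO_0h library (adjusted p up to 0.171). Of the 32 members tested in both CD experiments, 10 were higher in both, Itgb4 was lower in both, and 0 had opposite calls, against 7.03, 9.25 and 0.189% of 12723 genes. XEN markers summed to 4648 to 4804 CPM with DMSO and 7733 to 8771 with CD, and fibroblast markers to 6200.0 to 6505 and 4548 to 4593. Macrophage markers summed to 320 to 455 CPM with DMSO and 139 to 218 with CD (2 of 6 fell), and pluripotency markers to 6.24 to 12.6 and 21.8 to 33.3 (2 of 4 tested rose). Endothelial markers summed to 65.0 to 78.9 and 50.5 to 57.6 CPM (1 of 2 fell) and mesothelial markers to 22.3 to 24.8 and 14.1 to 14.4 (1 of 3 fell). The part of these cell types was not tested.

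After 8 h of actinomycin D, tight junction genes fell relative to the median gene in 6 of 12 cases with DMSO and in 8 of 12 with CD, keratins in 3 and 2 of 4, and desmosome and plaque genes in 2 and 6 of 8. The 2 adhesion genes fell in neither arm, and the 2 hemidesmosome and basement membrane genes rose in both. In the DMSO arm 12 of 36 members fell, 3 rose and 21 were not called, with 29.8% of 17064 genes called (13.3% lower and 16.5% higher). In the CD arm 18 fell, 9 rose and 9 were not called, with 54% called (30.1% lower and 23.9% higher). Each arm shares its 0 h libraries with the comparison of CD and DMSO at 0 h. The median member changed by -0.27 and -0.44, against 0.00 and -0.05 over all genes. These are changes relative to the median gene: in the deposited CPM the median gene itself fell by 0.33 and 0.34, and 16 and 23 members were lower and 1 and 3 higher, where 31% and 54.4% of genes were called (27.2% and 41.3% lower, 3.73% and 13.2% higher). Scaled to the spike-ins, 18 and 24 members were lower and 0 higher in the DMSO and CD arms, where 17.1% and 46.3% of all genes were lower and 0.609% and 5.46% higher. XEN markers summed to 4648 to 4804 CPM at 0 h and 2651 to 3265 at 8 h with DMSO, and to 7733 to 8771 and 6428 to 6744 with CD. Fibroblast markers summed to 6200.0 to 6505 CPM at 0 h and 7307 to 7793 at 8 h with DMSO, and to 4548 to 4593 and 5611 to 5626 with CD. Macrophage markers summed to 320 to 455 CPM at 0 h and 468 to 603 at 8 h with DMSO (2 of 6 rose), and to 139 to 218 and 504 to 537 with CD (5 of 6 rose). Pluripotency markers summed to 6.24 to 12.6 CPM at 0 h and 1.08 to 2.99 at 8 h with DMSO, and to 21.8 to 33.3 and 6.44 to 7.03 with CD (2 of 4 tested fell in each arm). Endothelial markers summed to 65.0 to 78.9 CPM at 0 h and 103 to 132 at 8 h with DMSO, and to 50.5 to 57.6 and 59.2 to 62.7 with CD (1 of 2 rose in each arm). Mesothelial markers summed to 22.3 to 24.8 CPM at 0 h and 31.9 to 36.1 at 8 h with DMSO (2 of 3 tested rose), and to 14.1 to 14.4 and 23.5 to 24.6 with CD (1 rose and 1 fell). The part of these cell types was not tested.

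Krt18 fell from 138 and 79.9 to 29.4 and 57.1 CPM in the DMSO arm (-0.93 ± 0.28) and from 369 and 219 to 67.7 and 68.8 in the CD arm (-1.70 ± 0.28, limma adjusted p = 0.00250). Ocln fell from 23.2 and 13.8 to 2.76 and 5.59 CPM (-1.57 ± 0.34) and from 68.0 and 31.1 to 10.7 and 13.0 (-1.55 ± 0.34). Cgn fell from 20.9 and 11 to 3.54 and 6.44 (-1.13 ± 0.28) and from 56.1 and 34.6 to 11.3 and 9.30 (-1.67 ± 0.28). In these 3 genes the 0 h and 8 h libraries of each arm were apart. Marveld3 (17.9 and 13.0 to 3.30 and 6.89 CPM with DMSO, 41.5 and 22.6 to 11.4 and 9.82 with CD) changed by -1.12 and -1.12, and Pkp2, a plaque protein of desmosomes (16.4 and 11.7 to 4.02 and 6.11, 39.0 and 20.6 to 9.99 and 8.72), by -0.96 and -1.18. Esrp1 fell in the DMSO arm (44.5 and 43.7 to 13.3 and 19.3 CPM, -1.01 ± 0.13) and was not called in the CD arm (75.0 and 66.1 to 48.7 and 45.9, -0.23 ± 0.13). Ppl fell in the CD arm (16 and 9.00 to 3.43 and 3.31 CPM, -1.27 ± 0.29). Krt8, the partner of Krt18, went from 259 and 228 to 129.8 and 151 CPM with DMSO (-0.38 ± 0.11) and from 386 and 413 to 283 and 277 with CD (-0.17 ± 0.11, not called).

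Other members were level or rose relative to the median gene. Epcam changed from 419.9 and 502 to 460.4 and 377 CPM in the DMSO arm, which was not called (0.27 ± 0.23), and rose from 382 and 567 to 679 and 667 in the CD arm (0.87 ± 0.23, limma adjusted p = 0.0101). At 4 h it stood at 731 and 684 CPM with DMSO against 719 and 766 with CD, above 0 h in all 4 libraries. Cdh1 was not called with DMSO (222 and 218 to 188 and 176 CPM, 0.14 ± 0.16) and rose with CD (221 and 286 to 276 and 272, 0.47 ± 0.16), with the deposited CPM of its 0 h and 8 h libraries overlapping. Cxadr (80.8 and 116 to 158 and 142 CPM, 0.97 ± 0.22), Dsc2 (23.5 and 29.5 to 39.5 and 41.6, 0.93 ± 0.21) and Spint2 (248 and 361 to 365 and 366, 0.63 ± 0.20) rose in the CD arm, as did F11r, a junctional immunoglobulin protein (92.8 and 133 to 127 and 126, 0.53 ± 0.19), and Ap1m2 (19.5 and 26.4 to 24.6 and 28.1, 0.54 ± 0.18). The deposited values of F11r and Ap1m2 overlap between 0 h and 8 h. Itgb4 and Lamb3 rose in both arms. Itgb4 went from 55.1 and 41.3 to 67.8 and 75.5 CPM (0.98 ± 0.16) and from 29.6 and 37.0 to 46.0 and 38.9 (0.68 ± 0.16), and Lamb3 from 11 and 13.5 to 17.0 and 14.7 (0.73 ± 0.24) and from 7.73 and 11.9 to 13.2 and 15.7 (0.85 ± 0.24). Dsp was called higher relative to the median gene with DMSO (186 and 169.5 to 173 and 208 CPM, 0.50 ± 0.10), but its deposited 0 h and 8 h values overlap and its change was -0.17 on the spike-in scale. As deposited, the calls of Lamb3 in both arms, of Dsp in the DMSO arm and of Itgb4, Cdh1, F11r, Spint2 and Ap1m2 in the CD arm were lost, and those of Epcam, Cxadr and Dsc2 in the CD arm stayed. On the spike-in scale the changes of Cdh1, F11r, Dsp, Spint2 and Ap1m2 in the CD arm turned to -0.21, -0.15, -0.55, -0.052 and -0.12.

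**Figure D2:**
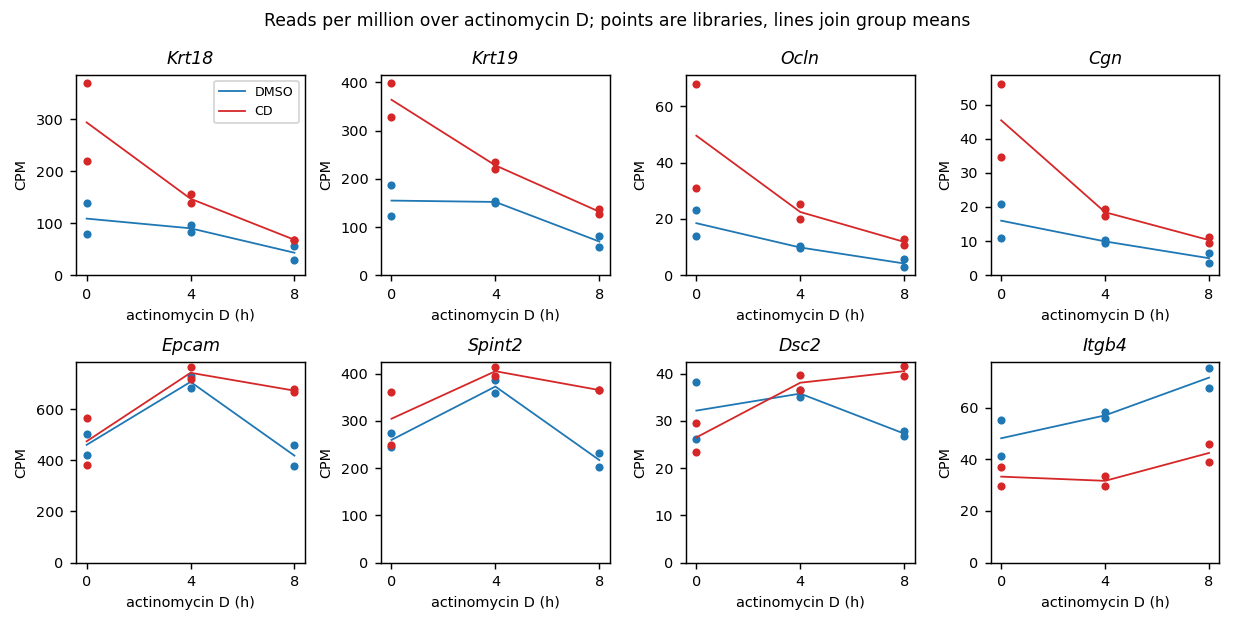
CPM as deposited against hours of actinomycin D for 8 members, with points for libraries and lines through the means of the DMSO (blue) and CD (red) arms; y axes start at 0. The upper row fell in both arms (Krt18 to 67.7 and 68.8 CPM with CD at 8 h), and the CD libraries at 0 h are spread widely, while Epcam and Spint2 peaked at 4 h.

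Most of these calls were lost when a library was left out. Without each library in turn, 2 of the 15 calls in the DMSO arm were kept each time (Esrp1 and Itgb4), and 8 of the 27 in the CD arm (Krt18, Krt19, Ocln, Cgn, Pkp2, Ppl, Cxadr and Dsc2). The number called lower in the DMSO arm was 1 without DMSO_8h replicate 1, 2 without DMSO_0h replicate 1 and 11 without either of the others. In the CD arm it was 10 and 11 without CD_8h replicates 1 and 2, and 6 and 19 without CD_0h replicates 1 and 2, with 3, 4, 2 and 10 called higher. In the DMSO arm 1, 4, 2 and 4 were called higher without DMSO_8h replicates 1 and 2 and DMSO_0h replicates 1 and 2. The calls over all genes moved likewise: in that order, 0.7, 16.3, 1.38 and 14.2% of genes were lower in the DMSO arm, and 18.3, 19.7, 13.0 and 33.4% in the CD arm without CD_8h replicates 1 and 2 and CD_0h replicates 1 and 2. The genes called higher were 1.6, 19.0, 3.94 and 17.4% with DMSO and 14.2, 15.0, 11.9 and 25.7% with CD. Across the arms, 9 members were lower in both, 2 higher in both and 0 called in opposite directions, against 10.7, 12.4 and 0.0879% of 17064 genes. The test of the difference of the 2 changes called 0 of 36 members with limma, where 0.00586% of 17064 genes (1 gene) were called. The members' differences ranged from -1.11 to 0.79 with a smallest adjusted p of 0.331, and 6 of 36 had an unadjusted p under 0.05 with limma, 6 with edgeR and 8 with DESeq2. edgeR also called 0 members. DESeq2 called 0 of the 30 members to which it gave an adjusted p, where it called 28 genes higher and 25 lower of 10778. Krt18 differed by -0.77 ± 0.39, Krt8 by 0.22 ± 0.15, Cdh1 by 0.33 ± 0.22 and Epcam by 0.60 ± 0.33.

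The MEF libraries held little of the set apart from Jup. Of the 36 members, 14 were listed at 0 in both MEF libraries, among them Epcam, Ocln, Crb3, Esrp1 and the 4 claudins. The 36 summed to 166 and 164 TPM, of which Jup alone gave 95.3 and 87.5. Pkp2 (16.2 and 15.8 TPM), F11r (12.1 and 13.0), Spint2 (9.62 and 8.92), Krt19 (6.52 and 10.3) and Krt18 (6.46 and 9.04) came next, and Cdh1 was at 1.23 and 0.813. Of the 8 pluripotency markers 6 to 7 were at 0 in MEF, with a sum of at most 0.7 TPM, and the 12 fibroblast markers summed to 20353 to 21263 TPM and the macrophage markers to 1052 to 1266. In the pluripotent lines the pluripotency markers summed to 6161 to 7459 TPM.

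In the derived lines and R1, Spint2 and Cdh1 were the most abundant members. Against MEF, 29 of the 33 members tested were higher in the DMSO-derived lines and 2 lower (68.3% of 17414 genes were called, 34.4% higher and 33.9% lower), 27 higher and 2 lower in the CD-derived lines (69.4% called, 35.2% and 34.2%), and 27 higher and 2 lower in R1 (68.8% called, 35% and 33.9%). These 3 comparisons share the MEF libraries. In MEF replicates 1 and 2, 12 and 11 members stood at 1 TPM or more. Tested members under 1 TPM in both MEF libraries, Epcam and Ocln among them, passed the filter through the pluripotent libraries only. They could be tested only because they were high in those lines, which favours a call as higher. How many of the higher calls came from such members is not given here. Marveld3, Evpl and Lamb3 did not pass the filter. Cdh1 stood at 118 and 116 TPM in DMSO-iPSC, 149 and 127 in CD-iPSC and 125 and 128 in R1, far above MEF in every line (DMSO-iPSC against MEF, 5.99 ± 0.12). Spint1, an inhibitor of matriptase, stood at 69.5 and 64.8 TPM in DMSO-iPSC against 2.82 and 2.22 in MEF (4.40 ± 0.14), Dsg2, a desmosomal cadherin, at 20.2 and 20.8 against 0.279 and 0.221 (4.2 ± 0.18), and Spint2 at 114 and 117 (3.64 ± 0.11). St14 stood at 52.6 and 37.9 TPM in CD-iPSC and 37.2 and 38.8 in R1, against 0.986 and 1.30 in MEF. Krt7 stood at 2.45 and 1.56 TPM in MEF, was listed at 0 in both DMSO-iPSC libraries and stood at 0.530 and 0.995 in CD-iPSC and 0.410 and 0.525 in R1. It passed the filter through the MEF libraries only, so that it could be tested only where it was high there, and it was not tested without either of them. Its call as lower in CD-iPSC was lost without CD-iPSC replicate 1 (adjusted p = 0.119). Without Krt7, 1 of 32 members was lower in each of the 3 comparisons. Jup was lower than in MEF in CD-iPSC (-1.73 ± 0.16) and R1 (-0.76 ± 0.16). Krt19 was lower in DMSO-iPSC (-1.11 ± 0.29), a call lost without DMSO-iPSC replicate 1 or MEF replicate 2 (up to 0.0669). Krt8 was higher than in MEF in DMSO-iPSC (2.58 ± 0.25), CD-iPSC (1.00 ± 0.25, lost without MEF replicate 1, adjusted p = 0.0538) and R1 (1.83 ± 0.25). Krt18 was higher in DMSO-iPSC (1.36 ± 0.26) and not called in CD-iPSC (0.47 ± 0.26) or R1 (0.14 ± 0.26). The ratio of Krt8 to Cdh1 TPM, taken within a library, was 0.0368 to 0.167 in the 6 pluripotent libraries. In the MEF libraries of the same table it was 1.85 and 3.85, with Krt8 at 2.27 and 3.13 TPM and Cdh1 at 1.23 and 0.813. It was 1.99 to 8.64 in the culture libraries of the CD, Rxra and Exosc3 tables, whose values were normalized separately.

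**Figure D3:**
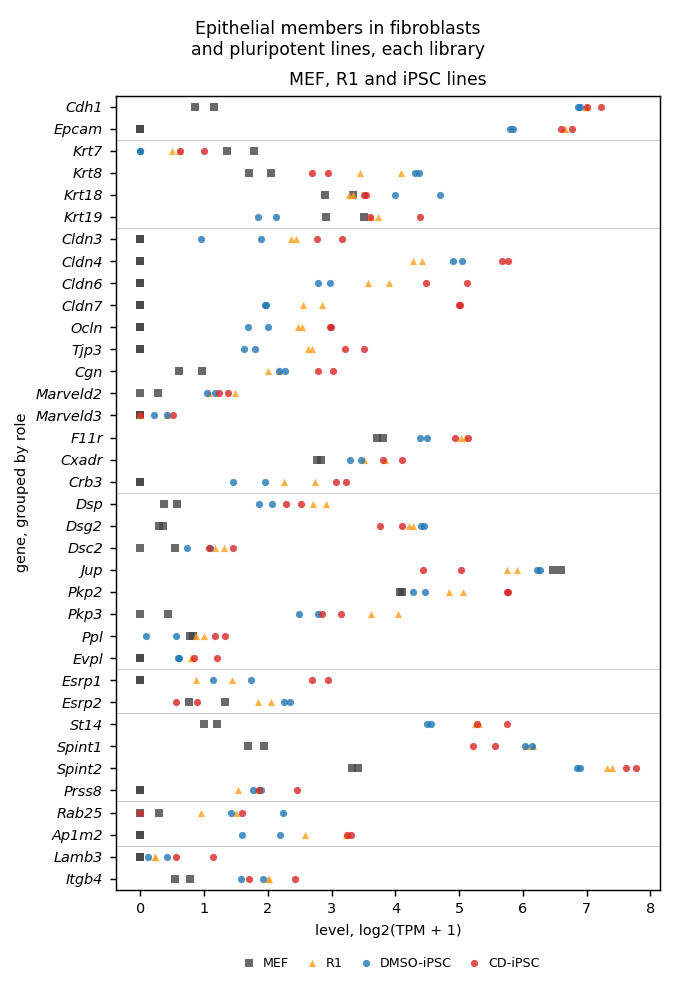
Level of each member as log2(TPM + 1) of the deposited values in MEF (squares), R1 (triangles) and the DMSO-derived (blue) and CD-derived (red) iPSC libraries. Points at 0 are listed at 0; red points lie furthest right for Cldn7 (31.1 and 31.1 TPM) and to the left of blue ones for Krt8, Jup, Esrp2 and Spint1.

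CD-derived and DMSO-derived lines differed in both directions. Of 33 members tested, 18 were higher in CD-iPSC, 6 lower and 9 not called, where 38.7% of all genes were called (18% higher and 20.7% lower), and the median was 0.63 against -0.02 over all genes. As deposited, 19 were higher and 6 lower, where 38.5% were called. The number called higher was 13 to 18 when a library was left out. Tight junction and polarity genes made up 9 of the 18. Another of the 18, Krt7 (0.530 and 0.995 TPM in CD-iPSC, listed at 0 in both DMSO-iPSC libraries), passed the filter through the MEF libraries only. Its call was lost when a library was left out. Without Krt7, 17 of 32 members were higher, with a median of 0.58. Cldn7 stood at 2.91 and 2.89 TPM in DMSO-iPSC, 31.1 and 31.1 in CD-iPSC and 6.17 and 4.86 in R1 (CD-iPSC against DMSO-iPSC, 3.0 ± 0.18, limma adjusted p = 0.000117; against R1, 2.41 ± 0.18). Cldn6 stood at 5.86 and 6.87 TPM in DMSO-iPSC, 33.8 and 21.4 in CD-iPSC and 10.8 and 13.9 in R1 (1.87 ± 0.22 against DMSO-iPSC). Tjp3 stood at 2.07 and 2.46 TPM in DMSO-iPSC, 8.24 and 10.3 in CD-iPSC and 5.49 and 5.16 in R1 (1.61 ± 0.19), Cldn3 at 0.926 and 2.70 TPM in DMSO-iPSC, 7.90 and 5.78 in CD-iPSC and 4.13 and 4.44 in R1 (1.51 ± 0.31) and Crb3 at 2.86 and 1.74 TPM in DMSO-iPSC, 8.38 and 7.41 in CD-iPSC and 3.75 and 5.65 in R1 (1.41 ± 0.24). In each of these 5 genes R1 lay between the derived lines. Epcam was at 56.6 and 54.4 TPM in DMSO-iPSC, 109 and 95.8 in CD-iPSC and 99.86 and 99.2 in R1 (0.80 ± 0.10 between the derived lines), and Cdh1 was not called (0.17 ± 0.12).

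The keratins parted ways between the lines. Krt19 was higher in CD-iPSC (19.9 and 11.1 TPM) than in DMSO-iPSC (2.59 and 3.38; 1.96 ± 0.29), while Krt8 was lower (5.48 and 6.70 against 19.7 and 18.8 TPM, -1.58 ± 0.25) and so was Krt18 (10.6 and 10.4 against 14.8 and 25.1, -0.88 ± 0.26). R1 had 12.3 and 11.3 TPM of Krt19, 9.85 and 16.1 of Krt8 and 8.64 and 9.13 of Krt18. The call of Krt18 was lost without either CD-iPSC library or DMSO-iPSC replicate 2 (adjusted p up to 0.154). Jup was at 31.5 and 20.6 TPM in CD-iPSC, 76.0 and 73.3 in DMSO-iPSC and 52.6 and 58.7 in R1 (-1.58 ± 0.16 between the derived lines). The 2 splicing regulators went opposite ways: Esrp1 was higher in CD-iPSC (5.47 and 6.66 against 1.21 and 2.31 TPM, 1.35 ± 0.28, lost without DMSO-iPSC replicate 1 at adjusted p = 0.0547) and Esrp2 lower (0.840 and 0.478 against 4.06 and 3.77, -1.64 ± 0.24). The same held for the Kunitz inhibitors, with Spint2 higher (196 and 217 against 114 and 117 TPM, 0.76 ± 0.11) and Spint1 lower (46.3 and 36 against 69.5 and 64.8, -0.77 ± 0.14). Dsg2 was lower (12.5 and 16.1 against 20.2 and 20.8 TPM, -0.56 ± 0.18), a call lost without CD-iPSC replicate 1 or either DMSO-iPSC library (adjusted p up to 0.157). Fibroblast markers summed to 107 to 118 TPM in CD-iPSC and 267 in DMSO-iPSC, and macrophage markers to 51.4 to 55.7 and 83.2 to 92.5. Keratinocyte markers summed to 9.54 to 15.7 and 37.5 to 43.1, mostly from 1 gene, Sfn (14.0 and 7.80 against 36.6 and 42.1). Endothelial markers summed to 83.4 to 87.3 and 37.9 to 39.9, mostly from Pecam1 (84.3 and 79.1 against 36.3 and 37.9). Pecam1 stood at 75.3 and 74.6 TPM in R1. These 2 sums thus say little of the other markers on their lists. Pluripotency markers summed to 6433 to 7034 and 6161 to 6326. The part of all these markers in the differences was not tested.

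R1 served as the reference for both lines. Against it, CD-iPSC had 8 members higher, 3 lower and 22 not called (22.8% of genes called, 10.3% higher and 12.5% lower), and DMSO-iPSC had 3 higher, 6 lower and 24 not called (16.5% called, 9.22% higher and 7.28% lower). As deposited, the CD-iPSC counts were 8 and 4, where 23.7% of all genes were called (7.44% higher and 16.3% lower). The DMSO-iPSC counts as deposited were 2 and 13, where 21.1% were called (6.32% and 14.7%), with the median gene lower by 0.13. The 2 comparisons share the R1 libraries. In CD-iPSC, Cldn4 (53.6 and 50.2 against 18.3 and 20.2 TPM, 1.5 ± 0.13), Cldn7, Pkp2 (52.9 and 53.4 against 27.6 and 32.5, 0.93 ± 0.12) and Esrp1 (1.74 ± 0.28) stayed called without each library, and the other 7 of the 11 calls did not (Cldn6, Cgn, Tjp3 and Spint2 higher, Jup, Esrp2 and Spint1 lower, with adjusted p up to 0.128). In DMSO-iPSC, Krt18 (1.22 ± 0.26), Cldn4 (29.1 and 32.0 TPM, 0.82 ± 0.13) and Jup (0.61 ± 0.16) were higher than in R1 and Krt19 (-1.53 ± 0.29), Pkp3 (4.60 and 5.86 against 11.2 and 15.5, -1.03 ± 0.23), Tjp3 (-0.81 ± 0.19), Dsp (3.16 and 2.64 against 5.54 and 6.48, -0.69 ± 0.18), Epcam (-0.64 ± 0.10) and F11r (21.5 and 19.9 against 33.0 and 31.6, -0.44 ± 0.12) lower. None of these 9 calls was kept without each library in turn (adjusted p up to 0.218).

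**Figure D4:**
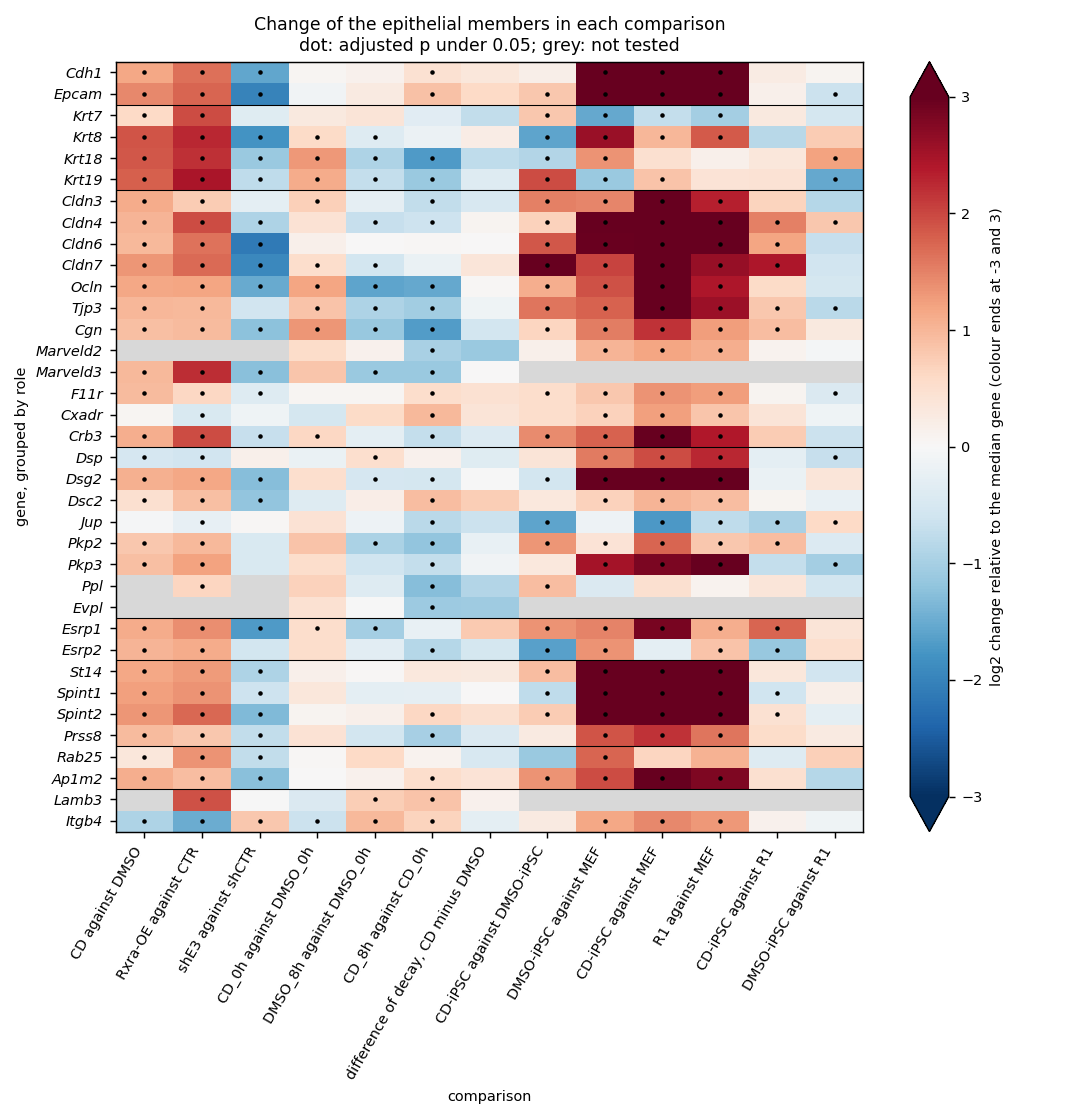
Log2 change of the 36 members (rows, parted by role) in the 13 comparisons (columns) relative to the median gene; dots mark an adjusted p under 0.05 and grey cells were not tested. Itgb4 and Dsp stand out from the red column of CD, where 28 members rose, and the column for the difference of decay has no dot; changes against MEF for genes listed at 0 there depend on the pseudocount.

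The genome places some members side by side. Krt8 (chr15:101996698-102004482) and Krt18 (chr15:102028180-102032027) lie 23.7 kb apart on GRCm38, and changed by 1.89 and 1.87 with CD, by 2.25 and 2.20 with Rxra-OE, by -1.80 and -1.12 with shE3 and by 0.58 and 1.29 in CD_0h. Cldn4 and Cldn3 on chromosome 5 lie 39.3 kb apart. They changed by 1.02 and 1.12 with CD, by 1.96 and 0.76 with Rxra-OE (Cldn3 from 4.60 and 6.03 to 15.1 and 16.7 TPM), by -0.92 and -0.30 (not called) with shE3, and by 0.44 (not called) and 0.71 in CD_0h. Ocln and Marveld2 on chromosome 13 lie 43.2 kb apart. The strand setting of the counting is not given in the sources used here, so reads of genes that overlap a member on the other strand, such as Gm36026 at Krt8, Apba3 at Tjp3, Nfatc3 at Esrp2, Kat8 at Prss8 and Hsd11b1 at Lamb3, cannot be told apart from it, and Krt8 has a pseudogene, Krt8-ps, that could share its reads.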

How the data were processed

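RNA-seq of 32 libraries was analysed from 5 tables of the authors' values. Per the submitters' processing notes, fastp 0.20.1, HISAT2 2.1.0, StringTie 2.0 and the mm10 build were used. The sources used here do not give the strand setting or the annotation. The authors deposited TPM in 4 tables, whose depth is unknown, and a signal in CPM (reads scaled to library size) in the actinomycin D table. In the latter, 99.97 to 99.996% of values came out as whole reads (tolerance 0.001), giving depths of 15382821 to 24186485 reads. Names came from GENCODE M21, which named 55141 of 55401 identifiers.

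The members and lists were chosen with earlier results of these data known. A gene entered the test if 2 or more libraries of its table had a value of 1 or above, in 1 limma 3.58.1 fit per table (R 4.3.3, trended prior, two-sided) on log2(value / median-ratio factor + 1), and p-values were adjusted by Benjamini-Hochberg over all genes tested. The text names Cdh1, Epcam, Krt8 and Krt18, the 6 called members of largest change in each direction whose higher group averaged 2 or above, and members called against the majority. Other pathway genes, at most 4 per list, were named by smallest p. One of them is not reported here. Alternatives were the values as deposited, pseudocount 0.1, a filter of 5 or none, a replicate block, leaving out each library, and edgeR 4.0.16 and DESeq2 1.42.0 on the recovered reads. Scaling to ERCC spike-ins (1267 to 2180 CPM) and crossed replicate pairs were added after seeing the data. The scripts were tested on simulated data. Since the labels do not say that replicates were separate cultures, p-values measure only the spread between these samples, which may be technical.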

Additional observations from a re-analysis of the deposited data

Results flagged for a closer look

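For 5 members, both CD libraries lay above both DMSO libraries in the reprogramming cultures, and both CD-derived iPSC libraries lay below both DMSO-derived ones. The log2 changes were 1.89 and -1.58 for Krt8, 1.87 and -0.88 for Krt18, 1.06 and -0.56 for Dsg2, 1.02 and -1.64 for Esrp2, and 1.23 and -0.77 for Spint1. The tables were normalized separately and hold other cells, so each direction stands within its own table, and the difference between them was not tested. Of the 22 members called in both comparisons, the other 17 were higher with CD in both. Among these, Krt7 passed the filter of the lines through MEF only, and Tjp3 that of the cultures through the CD libraries only. With 2 libraries in each group, lying apart was common: 36 members did so in the cultures and 31 between the lines. Over all genes tested, 61.7% were called in the cultures and 38.7% between the lines. The share of all genes with the same or opposite calls in both is not given here. Whether the members differ from other genes in this therefore cannot be told from these counts. The calls of Krt18 and Dsg2 between the lines were lost when single libraries were left out.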

How the results depend on the processing

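As deposited, 1 member was called lower with Rxra-OE, 0 lower in CD_0h, 1 higher after 8 h with DMSO, 3 higher after 8 h with CD and 13 lower in DMSO-iPSC against R1, and the changes with Rxra-OE of Cxadr, Dsp and Jup turned to 0.24, 0.11 and 0.46. Without a filter, 5 members were higher and 0 lower in CD_0h, where 1.11 and 2.22% of all genes were. Without it, 7 members were lower after 8 h with DMSO (2.84% of all genes) and 3 lower in DMSO-iPSC against R1 (3.51%). With a filter of 5, 1 member was lower in each of the 3 comparisons with MEF, since fewer members were tested. There 37.3 to 37.5% of all genes were lower. Scaled to the spike-ins, 1 member was higher and 0 lower in CD_0h, and 0 were higher after 8 h in either arm. On that scale the changes at 8 h with DMSO were -0.54 for Cdh1, -0.41 for Epcam, -0.61 for F11r, -0.17 for Dsp, -0.63 for St14 and -0.53 for Spint2, and with CD -0.21 for Cdh1, -0.15 for F11r, -0.55 for Dsp, -0.052 for Spint2 and -0.12 for Ap1m2. Where no construction is named, the cause was not tested.

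With 1 library left out, the lone sample being assumed to vary like the other groups, the members called higher and lower were 25 to 28 and 2 with CD, 22 to 30 and 3 to 4 with Rxra-OE, 1 and 18 to 21 with shE3, 1 to 18 and 0 to 3 in CD_0h, 1 to 4 and 1 to 11 after 8 h with DMSO, 2 to 10 and 6 to 19 after 8 h with CD, and 0 and 0 for the difference of decay. They were 13 to 18 and 4 to 5 between the derived lines, 25 to 27 and 0 to 2 in DMSO-iPSC against MEF, 24 to 27 and 1 to 2 in both CD-iPSC and R1 against MEF, 4 to 7 and 0 to 3 in CD-iPSC against R1, and 0 to 2 and 0 to 1 in DMSO-iPSC against R1. Of the members' changes so recomputed, most stayed on their side of the threshold, and more lost a call than gained one. Members under the filter in such a fit were not counted. Changes not called in either fit were not checked for direction. The share of all genes called moved with the library left out as well.

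The labels do not say that replicate numbers pair samples. Same-numbered libraries had correlations of deviations of -0.72 to 0.55 under actinomycin D (4 of 15 pairs of groups over 0.1), -0.13 to 0.06 in the lines, 0.08 with shE3, -0.11 with CD and -0.13 with Rxra-OE. With the replicate block, 28 members were higher and 2 lower with CD, 30 and 4 with Rxra-OE, 1 and 21 with shE3, 8 and 1 in CD_0h, 2 and 11 after 8 h with DMSO, 9 and 17 after 8 h with CD, 17 and 5 between the derived lines, and 2 and 2 in DMSO-iPSC against R1. Over all genes, the block gave 30.6% higher and 30.0% lower with CD, 34.6 and 34.4% with Rxra-OE, and 15.1 and 12.2% with shE3. It gave 5.03 and 6.58% in CD_0h, 13.7 and 11.3% after 8 h with DMSO, and 22.3 and 28.9% after 8 h with CD. Between the derived lines it gave 16.2 and 18.9%, and in DMSO-iPSC against R1 6.82 and 5.07%. Crossed pairs gave 27 and 2 with CD (30.3 and 29.4% of all genes) and 30 and 4 with Rxra-OE (36.5 and 36.4%). On recovered reads edgeR called 9 higher and 1 lower in CD_0h (6.44 and 10.9% of all genes), and DESeq2 13 and 1 (12.9 and 13.4%).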
